A study of Mus musculus with 18 samples.

Results

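Nuclear-encoded genes of the respiratory chain were examined in mouse oocytes of 3 stages. They were chosen by gene symbol. The choice took genes whose symbol begins with Ndufa, Ndufb, Ndufc, Ndufs, Ndufv, Uqcr, Cox4i, Cox5, Cox6, Cox7, Cox8 or Atp5, together with Sdha, Sdhb, Sdhc, Sdhd and Cyc1. After 7 symbols marked as pseudogenes were dropped, 95 genes remained of 53715 in the count table, and no expression value was used to choose them. They comprised 38 complex I genes, 8 complex I assembly factors (Ndufaf genes), 4 complex II genes, 9 complex III genes, 19 complex IV genes and 17 ATP synthase genes.

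The respiratory chain sits in the inner mitochondrial membrane. Complex I and complex II pass electrons from NADH and succinate to ubiquinone, complex III passes them to cytochrome c, and complex IV passes them to oxygen. The protons pumped on the way drive ATP synthase, which makes most of the ATP of an aerobic cell. Most subunits are encoded in the nucleus and imported, a small number of core subunits are encoded in mitochondrial DNA, and oocytes carry very many mitochondria that are passed to the embryo.

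The 18 libraries came from C57Bl/6j x CBA/J mice and were labelled in vivo. Each of 6 groups had 3 libraries. The stages were oocytes of primordial follicles, oocytes of primary follicles and MII oocytes (arrested in metaphase of the second meiotic division), and each stage had a sham group beside one labelled NTY. The labels do not explain NTY and give no age or number of animals. The labelled protocol describes laser-microdissected cells, pooled by stage and amplified before an exon-capture library, and collected oocytes prepared by Smart-seq II. It was read as applying to the 12 primordial and primary libraries and to the 6 MII libraries, respectively. Stage and library method therefore cannot be told apart between MII and the other oocytes. Primary NTY 2 and 3 carry nearly the same library code, and no label says that replicates came from different animals, so p-values measure only the spread between these libraries.

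The microdissected libraries held 15149564 to 29205503 counts and the MII libraries 8652089 to 9978830. Oocyte marker genes (15 genes, among them Gdf9 and Zp3) summed to 6561 to 9172 CPM (counts scaled to 1000000 per library) in MII and to 4.11 to 1515 CPM in the microdissected libraries. Stroma markers (6 genes, among them Col1a1) summed to 1376 to 17910 CPM in the microdissected libraries and to at most 2.91 CPM in MII, where 3 of the 6 had no more than 3 counts in any library. Granulosa markers (14 genes) summed to 760 to 5099 CPM in the microdissected libraries and to 96.2 to 182 CPM in MII. Endothelium markers (3 genes) went the other way, with 0 to 59.7 CPM in the microdissected libraries and 100 to 148 CPM in MII. Blood markers (5 genes) reached 40.8 CPM in the microdissected libraries and 1.01 CPM in MII. Stroma and granulosa markers each summed to more than the oocyte markers in every microdissected library except primordial sham 2. There the oocyte sum was 1515 CPM, beside 1376 CPM of stroma and 869 CPM of granulosa markers. Below, primordial and primary oocytes are names taken from the labels, not a statement that the RNA is of oocytes alone. Primordial NTY 3 had the lowest oocyte marker sum, 4.11 CPM, beside 12990 CPM of stroma markers, so its label is most in doubt. The part of these other cells in the levels given here was not tested. In bulk RNA, fewer cells of a type and less RNA per cell cannot be told apart.

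In complex IV, the cytochrome c oxidase, several subunits exist as paralogous pairs with different tissue use. Cox6b2, known as the testis form of subunit 6b, was above the widely used Cox6b1 in all 6 MII libraries. In TPM (transcripts scaled to 1000000 per library, which divides by gene length and so allows genes to be compared), Cox6b2 stood at 31.6, 97.9 and 80.0 in MII sham and at 83.7, 97.2 and 88.3 in MII NTY. Cox6b1 stood at 1.34, 22.1 and 54.1 TPM in MII sham and at 14.5, 38.6 and 17.1 TPM in MII NTY. Cox6b2 thus made up 59.6% to 95.9% of the summed TPM of the pair in MII. In the 12 microdissected libraries the order was the opposite. Cox6b1 had 0.663 to 17.0 TPM and Cox6b2 at most 1.07 TPM. In primordial sham 2 the order rested on 4 counts against 3. Cox6b2 had 0, 3 and 4 counts in primordial sham, 1, 9 and 4 in primary sham, and none in the 6 NTY libraries. So near the floor of 3 counts, no difference between the treatments can be read.

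The promoters of this pair and of Cox8a, the member with the highest median TPM in MII, are shown. The order of the pair is reversed between MII and the microdissected libraries, and Cox8a does not overlap between them. Each is the RefSeq sequence on GRCm38.p6 from 250 bases before to 50 bases after the annotated start, on the gene's own strand. Capitals mark matches to CCGGAAG on either strand, the letters bound by ETS-family factors such as NRF2 (GABP), which is known for its sites in respiratory chain promoters.
Cox6b1 (chr7:30626065-30626364, minus strand): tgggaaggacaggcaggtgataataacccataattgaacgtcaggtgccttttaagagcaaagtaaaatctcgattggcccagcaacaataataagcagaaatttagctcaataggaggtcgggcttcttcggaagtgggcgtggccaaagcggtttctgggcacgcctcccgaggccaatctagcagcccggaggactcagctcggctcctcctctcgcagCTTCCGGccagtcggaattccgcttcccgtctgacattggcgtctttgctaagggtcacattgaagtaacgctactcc
Cox6b2 (chr7:4753045-4753344, minus strand): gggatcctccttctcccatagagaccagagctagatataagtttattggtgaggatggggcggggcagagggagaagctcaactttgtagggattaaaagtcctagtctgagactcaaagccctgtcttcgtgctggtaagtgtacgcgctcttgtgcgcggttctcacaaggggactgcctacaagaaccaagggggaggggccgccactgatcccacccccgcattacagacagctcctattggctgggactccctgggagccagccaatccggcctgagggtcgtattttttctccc
Cox8a (chr19:7217567-7217866, minus strand): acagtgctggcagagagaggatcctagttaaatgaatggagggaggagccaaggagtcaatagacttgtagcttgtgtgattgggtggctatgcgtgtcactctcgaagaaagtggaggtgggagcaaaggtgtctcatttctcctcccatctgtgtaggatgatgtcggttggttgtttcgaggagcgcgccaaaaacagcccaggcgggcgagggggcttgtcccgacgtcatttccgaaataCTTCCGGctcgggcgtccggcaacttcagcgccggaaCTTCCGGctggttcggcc

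The Cox6b1 promoter held 1 match, which begins at base 223, and 17 CpG dinucleotides. The Cox8a promoter held 2 matches, which begin at bases 246 and 283. No match was found in the Cox6b2 window, which held 10 CpG dinucleotides. A promoter of this length held the match in 9.93% of 27025 mouse genes. The median over genes was 8 CpG, taking the richest promoter of each. The letters TGACNNNGC of the antioxidant response element, searched on both strands, were in none of the 3 windows. A promoter of 13.99% of the genes holds them. A match is a description of the letters only. Promoter sequences were at hand for 74 of the 95 members, which is too few for a statement on the members as a set.

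Other complex IV pairs differed in form. Cox6a1, the widespread form of subunit 6a, had 27.3, 55.8 and 71.6 TPM in MII sham and 47.5, 100.5 and 52.5 TPM in MII NTY. Cox6a2, the heart and muscle form, had 6.61, 5.85 and 1.80 TPM in MII sham and 0.430, 3.39 and 4.33 TPM in MII NTY. It had no count in any of the 12 microdissected libraries, at a depth where 3 counts correspond to 0.103 to 0.198 CPM. Cox6a1 was therefore the higher of this pair in every MII library, unlike Cox6b1 in its own pair.

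Cox7a2 had 14.3, 72.5 and 93.9 TPM in MII sham, 38.7, 40.9 and 29.7 TPM in MII NTY, and at most 3.06 TPM in the microdissected libraries. Cox7a2l, which is known to help complexes III and IV associate, had 21.5, 39.1 and 29.1 TPM in MII sham and 63.3, 40.2 and 32.1 TPM in MII NTY. In the microdissected libraries its TPM ranged from 0.221 to 1491, so its replicates spanned from near absence to one of the highest values of any member. Cox7a1, the muscle form, had no count in any of the 18 libraries. Cox7b had 0.585 to 17.3 TPM in MII and 0 to 196 TPM in the microdissected libraries. Cox7b2 and Cox8b were not among the genes found by symbol.

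Cox8a was the most abundant member in MII by median TPM, though Uqcrc2 led in MII sham 1 and Atp5b in MII NTY 1. By counts, Atp5b (2789 to 5542) was above Cox8a (362 to 1215) in every MII library. TPM divides by length, and the annotated exons span 619 bases for Cox8a and 4237 bases for Atp5b. Cox8a had 157, 633 and 594 TPM in MII sham and 289, 437 and 332 TPM in MII NTY, against at most 19.1 TPM in any microdissected library. Cox8c, the testis form, had 1.24 TPM in MII sham 2 and 2.51 TPM in MII NTY 2 and no count elsewhere. Cox5a, a subunit that binds at the matrix side, was second in the complex in MII, with 62.8 to 128 TPM.

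Cox4i1 had 0.916 to 13.9 TPM in MII and 0 to 56.8 TPM in the microdissected libraries. Cox4i2, the paralogue known for induction by low oxygen, reached 63.8 TPM in primordial NTY 1 and 28.9 TPM in primary NTY 2, and was at or under 2.53 TPM in the other libraries. Ndufa4, a complex IV subunit despite its name, had 19.4 to 113 TPM in MII and 0 to 24.8 TPM in the microdissected libraries, and Ndufa4l2 had at most 1.56 TPM anywhere.

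**Figure D1:**
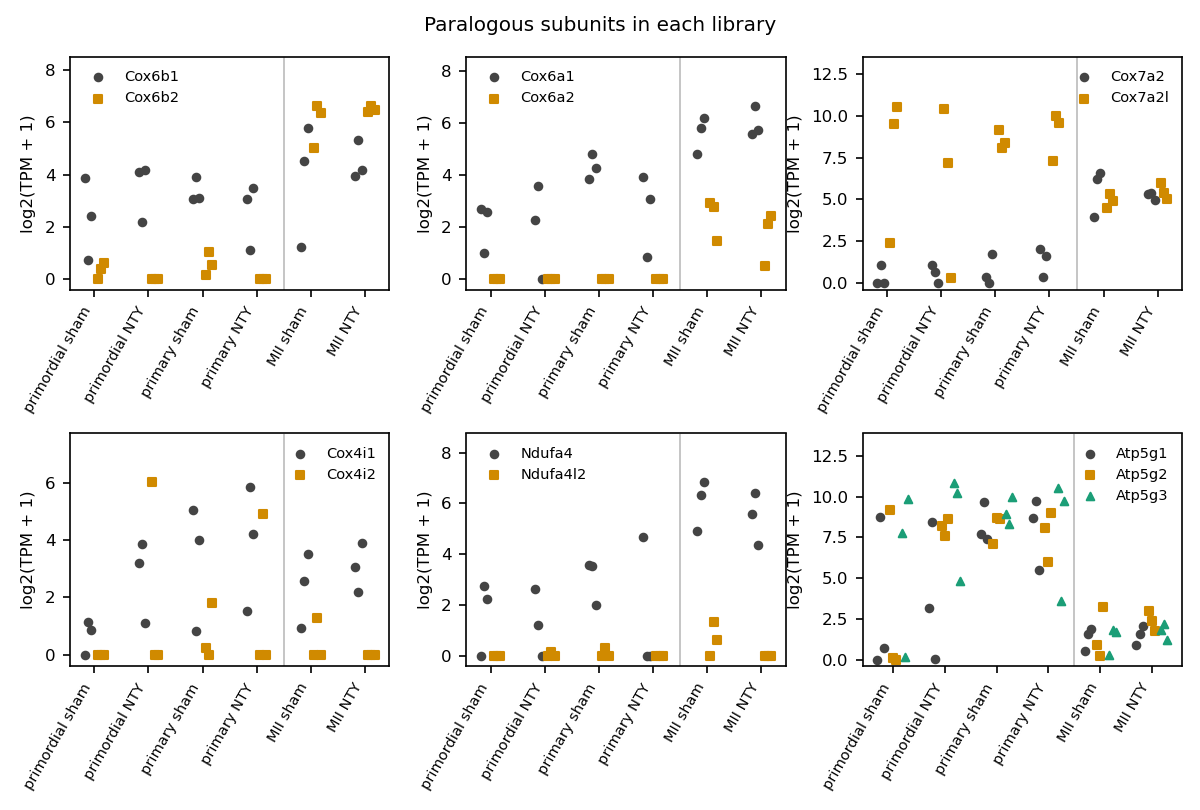
Level of paralogous subunits as log2(TPM + 1) on the vertical axis in the 6 groups on the horizontal axis, one point per library and one marker per gene, with the microdissected groups left of the grey line. Cox6b2 lies above Cox6b1 in all 6 MII libraries, and Atp5g1, Atp5g2 and Atp5g3 reach 867, 567 and 1813 TPM in microdissected libraries but at most 8.61 TPM in MII.

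Complex I, which oxidizes NADH, was led in MII by Ndufa10, an accessory subunit. Ndufa10 had 115, 163 and 174 TPM in MII sham and 148, 234 and 89.9 TPM in MII NTY, and 0.227 to 68.2 TPM in the microdissected libraries. The next was Ndufa8, with up to 88.6 TPM in MII. At the lower end, Ndufb10 and Ndufs7 had a median of 0 TPM in MII, and the processed pseudogene Ndufa11b had no count in any library. Ndufs3, which belongs to the catalytic core, had 14.8 to 24.7 TPM in MII.

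The complex I assembly factors, which build the complex without staying in it, had higher sums in MII than in 11 of the 12 microdissected libraries. Their summed level was 76.1, 172 and 214 TPM in MII sham and 167, 216 and 182 TPM in MII NTY. In the 12 microdissected libraries the sum had a median within groups of 1.57 to 8.55 TPM and reached 154 TPM once, in primordial NTY 3, where Ndufaf6 alone accounted for it. Ndufaf2 had 27.8, 56.6 and 93.0 TPM in MII sham and 72.1, 111 and 79.5 TPM in MII NTY, and at most 0.826 TPM in the microdissected libraries. Ndufaf4 had 41.6 to 79.6 TPM in MII and at most 0.933 TPM in the microdissected libraries. Ndufaf1, Ndufaf5 and Ndufaf6 had a median of 0 TPM in MII.

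In complex II, which links the tricarboxylic acid cycle to the chain, the flavoprotein subunit Sdha had 133, 282 and 204 TPM in MII sham and 185, 112 and 156 TPM in MII NTY. In the microdissected libraries Sdha ranged from 3.33 to 1261 TPM. The membrane anchor Sdhc had 9.70 to 70.9 TPM in MII and at most 3.07 TPM in the microdissected libraries, and the iron-sulfur subunit Sdhb had 0.514 to 8.62 TPM in MII. The other anchor, Sdhd, had the lowest median of the complex in MII, with 0 to 35.8 TPM. The 4 subunits, which form the complex together, thus differed widely in RNA level within the same MII library.

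In complex III, Uqcrc2, a core protein, led with 178, 243 and 220 TPM in MII sham and 183, 375 and 135 TPM in MII NTY. Its partner core protein Uqcrc1 had 0.115, 0.824 and 1.78 TPM in MII sham, 0.0708 TPM in MII NTY 1 and no count in MII NTY 2 and 3. In the microdissected libraries Uqcrc1 reached 63.3 TPM. Uqcrh, the hinge protein, had 4.97 to 18.1 TPM in MII. Cytochrome c1, Cyc1, had at most 6.43 TPM in MII.

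In ATP synthase, the catalytic beta subunit Atp5b led in MII. It had 156, 371 and 293 TPM in MII sham and 292, 229 and 221 TPM in MII NTY, against 16.4 to 668 TPM in the microdissected libraries. The alpha subunit Atp5a1 had 41.8 to 239 TPM in MII. The 3 genes for the membrane c subunit behaved otherwise. Atp5g1 had 0.482 to 3.24 TPM in MII and 0 to 867 TPM in the microdissected libraries, Atp5g2 had 0.170 to 8.61 TPM and 0 to 567 TPM, and Atp5g3 had 0.217 to 3.56 TPM and 0.108 to 1813 TPM. Atp5j, the coupling factor 6 subunit, had the lowest median of the complex in MII, with 0.280 to 3.13 TPM.

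**Figure D2:**
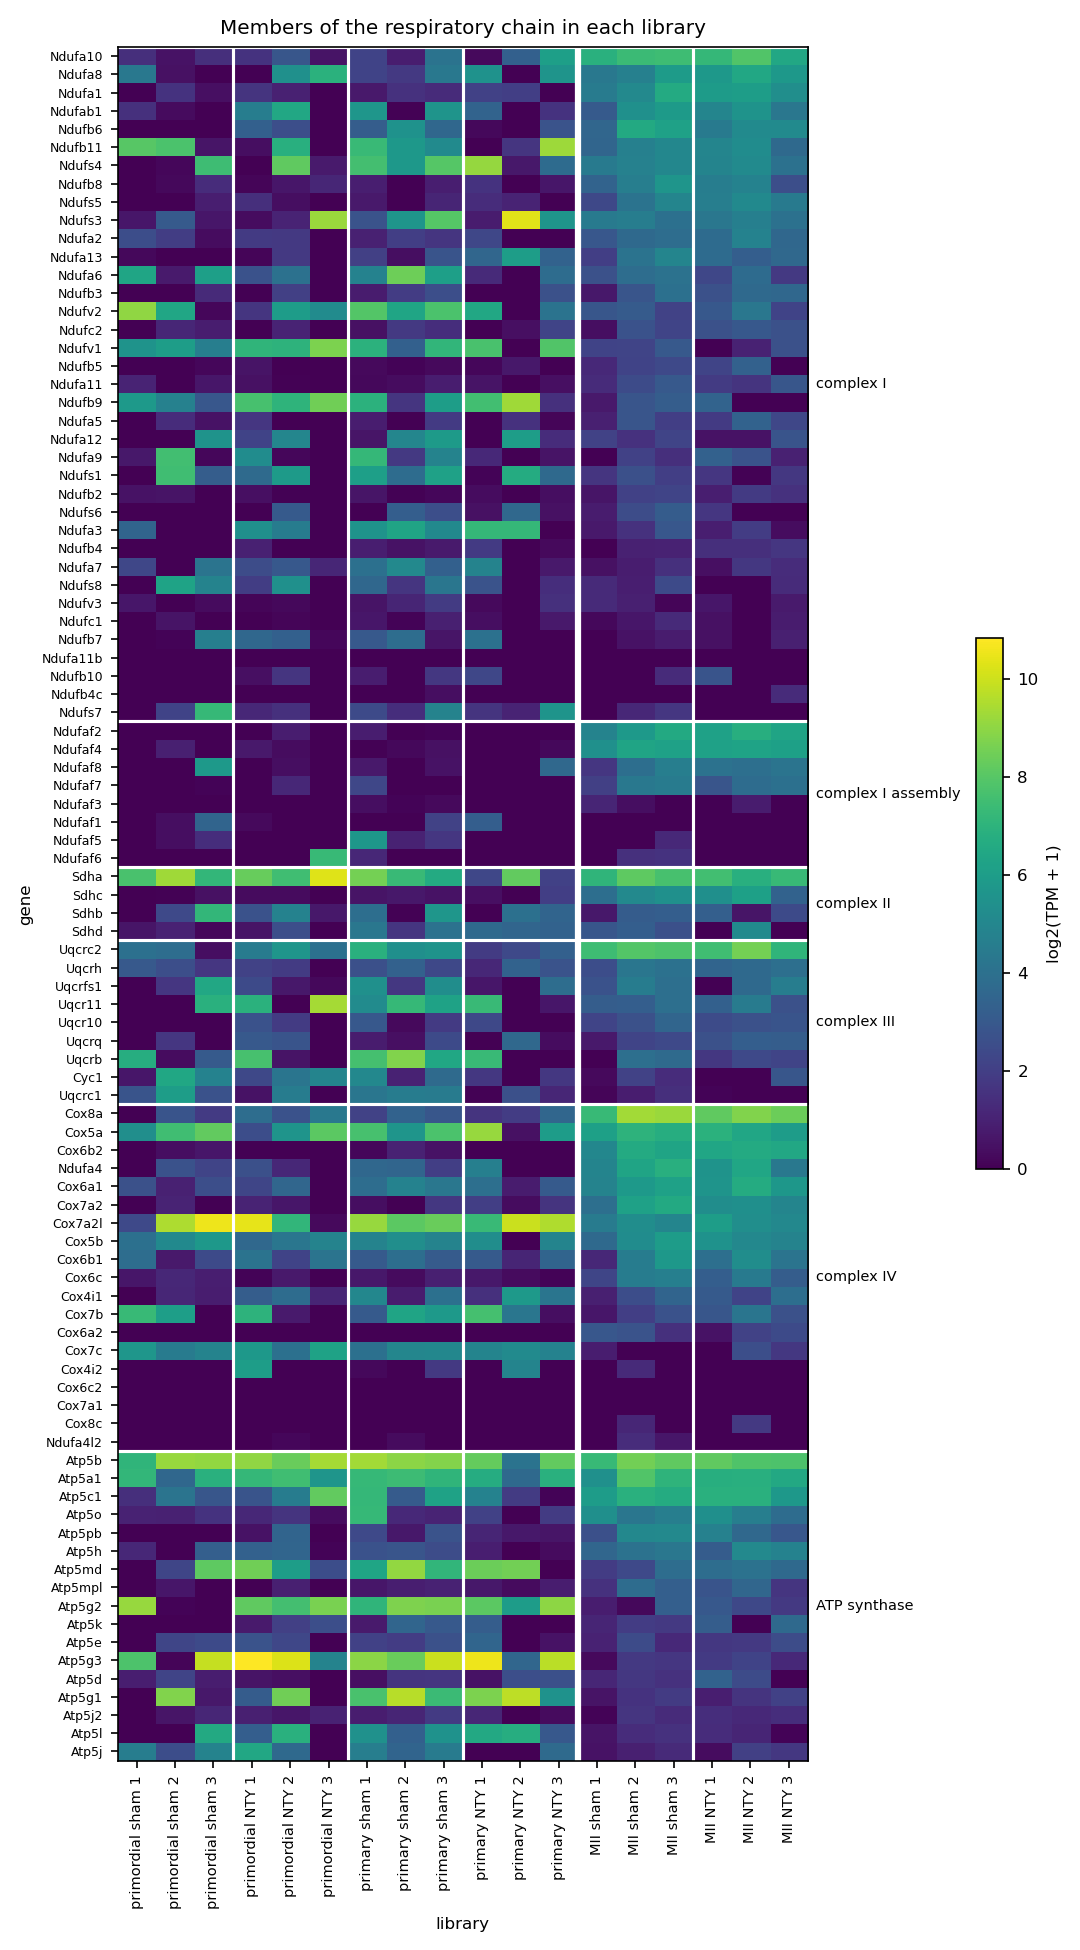
Level of 94 of the 95 members (rows, grouped by complex and ordered by median in MII) in the 18 libraries (columns), as log2(TPM + 1) by colour. The 6 MII columns look alike, while neighbouring microdissected columns of one group alternate between high and near 0, as for Atp5g1 with 0, 430 and 0.632 TPM in primordial sham.

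Of 87 members with at least 1 TPM in at least 3 libraries, 18 were above all 12 microdissected libraries in every MII library (20.7%). The same held for 23.3% of the 14965 genes with that level, so the share among the members lies near the background. They were Ndufa1, Ndufa2, Ndufa10, Ndufa11, Ndufb2, Ndufb8, Ndufs5, Ndufaf2, Ndufaf4, Sdhc, Uqcrc2, Cox6a1, Cox6a2, Cox6b2, Cox6c, Cox7a2, Cox8a and Atp5mpl. Cox7c was the single member below all of them (1.15%, against 2.83% of genes). It had 14.8 to 73.7 TPM in the microdissected libraries, and 0.837, 0, 0, 0, 5.09 and 2.35 TPM in MII.

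All members together took 2743 to 6214 of the 1000000 TPM in the microdissected libraries and 1416 to 3446 in MII, which is 0.142% to 0.621% of each library. The 13 protein genes of mitochondrial DNA took 35.1 to 405 TPM in the microdissected libraries and 53950 to 248500 TPM in MII. MII sham 1 had the most mitochondrially encoded RNA and the lowest sum of the members, 1416 TPM. With TPM rescaled to leave out those genes, a step added after the data were seen, the members summed to 2042, 3721 and 3754 in MII sham and to 2936, 3724 and 2826 in MII NTY.

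ATP synthase was the largest share in most microdissected libraries, with a summed level of 1044 to 3260 TPM, and had 327 to 828 TPM in MII, without overlap. The c subunit genes weighed heavily in this sum. In primordial sham 1, Atp5g2 at 567 TPM and Atp5g3 at 219 TPM made up most of the 1092 TPM. In primary NTY 2, Atp5g1 at 867 TPM made up most of the 1451 TPM. The gap is thus not a trait of every subunit. Complex I had 549 to 2902 TPM in the microdissected libraries and 280 to 770 TPM in MII, with overlap. Complex IV overlapped as well. It had 259 to 1884 TPM in the microdissected libraries and 378 to 1245 TPM in MII.

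**Figure D3:**
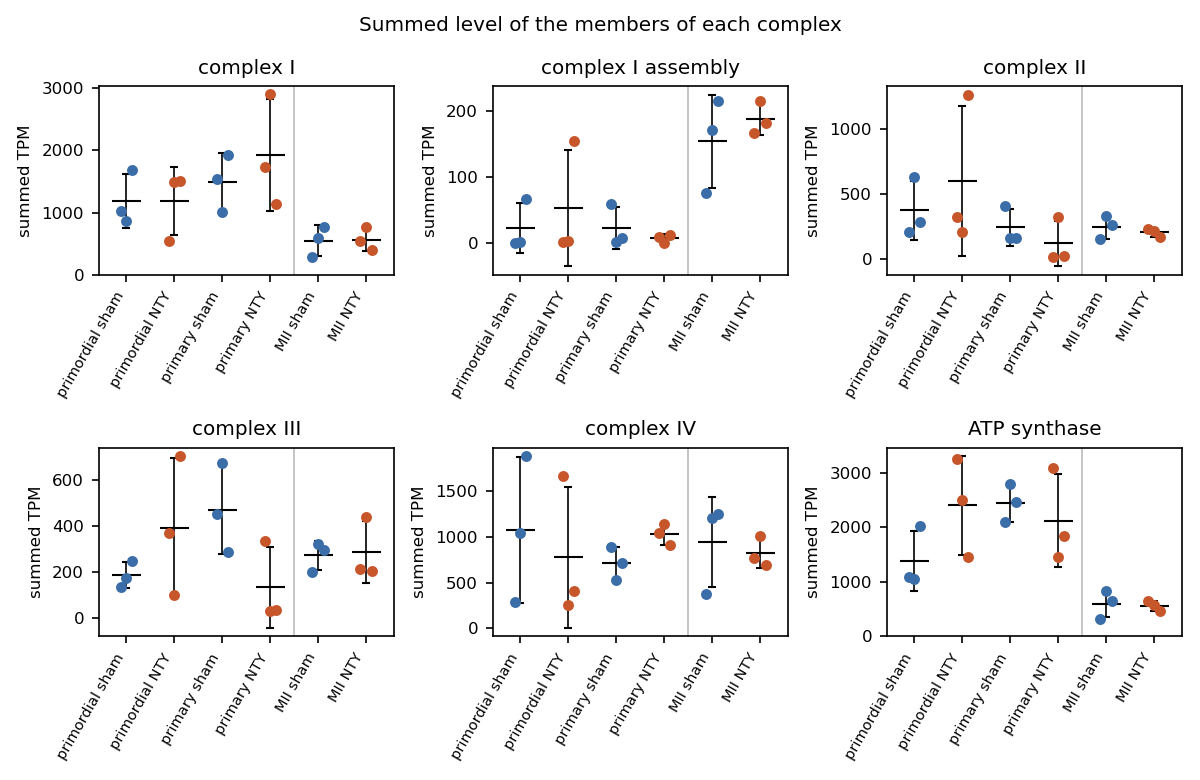
Summed TPM of the members of each complex (vertical axis, one panel per complex) in the 6 groups (horizontal axis), with one point per library (blue sham, orange NTY), the mean as a horizontal line and the SD of 3 libraries as a bar. ATP synthase lies between 327 and 828 TPM in MII and at or above 1044 TPM in the microdissected libraries, and the assembly factors show the opposite order except for 1 primordial NTY library. The ATP synthase sum includes the c subunit genes, which reach 1813 TPM in microdissected libraries but at most 8.61 TPM in MII.

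The microdissected libraries drew their sums from different genes. In each, between 2 and 7 genes accounted for 50% of the members' TPM. Atp5g3 was the leading gene in 5 of the 12 libraries, with 29.4% of the sum in primordial NTY 1, and Cox7a2l led 2, with 24.1% in primordial sham 3. Each of the 5 others was led by another gene, among them Atp5g2 with 20.7% in primordial sham 1, Sdha with 23.0% in primordial NTY 3 and Ndufs3 with 22.3% in primary NTY 2. Ndufs3 shows the size of the swing. Primordial sham libraries gave it 6, 139 and 8 counts, primordial NTY libraries 4, 17 and 9938, primary sham libraries 87, 811 and 4321, and primary NTY libraries 13, 20301 and 833. In MII it had 105 to 188 counts in all 6 libraries.

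Among members with at least 1000 counts in one replicate, many had no more than 3 counts in another replicate of the same group. Among primordial libraries, sham showed this for 11 of 20 such members (55.0%) and NTY for 12 of 22 (54.5%), where all genes gave 41.2% and 40.8%. Among primary libraries, NTY showed it for 7 of 21 (33.3%) and sham for 1 of 24 (4.17%), where all genes gave 40.5% and 14.3%. In MII it was so for 0 of 8 members in each group, at a lower depth. Such swings were therefore common among all genes of the microdissected libraries.

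In every microdissected library, 10 members had more than 3 counts. They were Atp5b, Atp5a1, Sdha, Uqcrc2, Ndufa10, Ndufs3, Ndufb9, Cox5a, Cox6b1 and Cox7c. Of these, 9 also passed 100 counts in some library, which is 10% of the 90 members with a count in any microdissected library. The share was 9.72% of 18858 such genes. In MII, 50 members had more than 3 counts in every library, and the share of all genes is not given. Of the 90 members, 27 ranged from 3 or fewer to 1000 or more (30%, against 31% of genes). A further 33 never passed 100 counts (36.7%, against 41.7%). These shares lie near those of all genes. The 33 had a median exon length of 1217 bases and the 27 one of 2147 bases.

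Replicates of primary sham resembled each other more than those of the other microdissected groups. Spearman's rho over the 95 members was 0.733 to 0.830 between primary sham libraries, 0.298 to 0.485 in primordial sham, 0.489 to 0.595 in primordial NTY and 0.307 to 0.377 in primary NTY. In MII it was 0.824 to 0.935. These coefficients are across genes, which are not independent, and are given as a description.

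**Figure D4:**
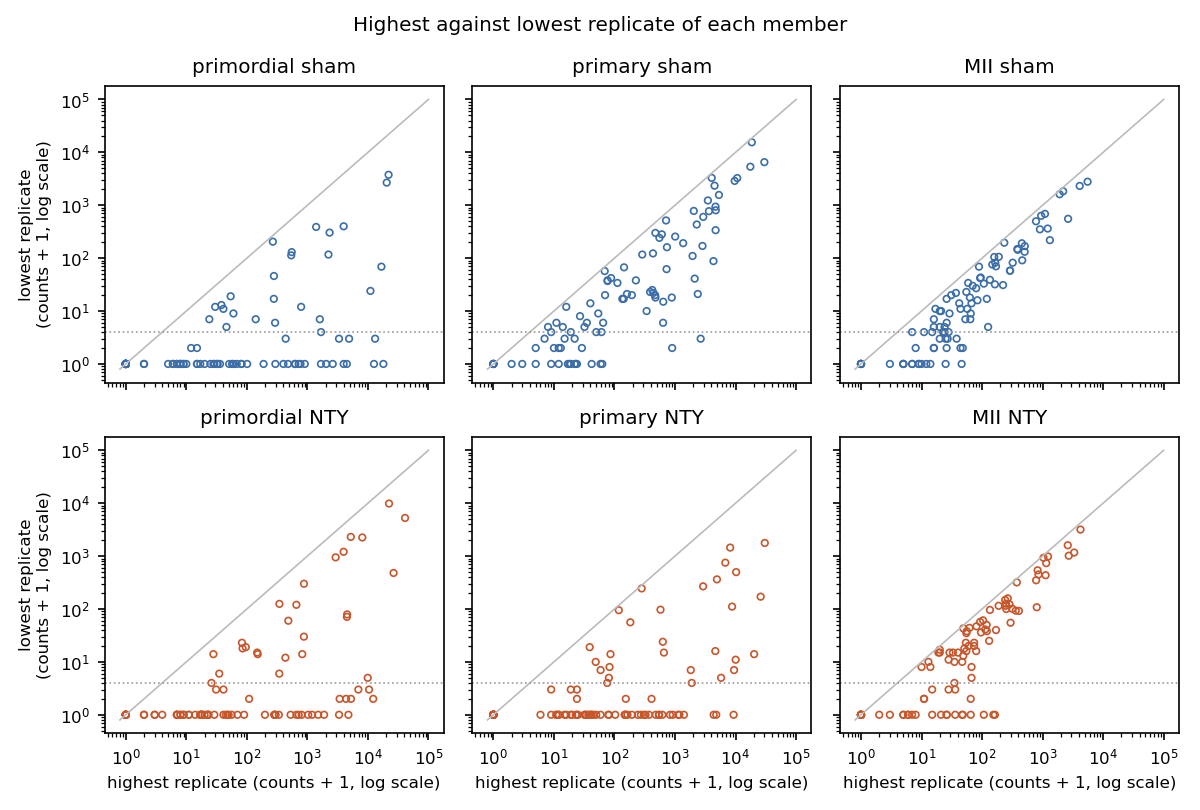
Counts + 1 of each member in its highest (horizontal axis, log scale) and lowest (vertical axis, log scale) replicate of a group, one panel per group, with the diagonal of equal counts and a dotted line at 3 counts. In MII no member with at least 1000 counts in 1 replicate falls to 3 or fewer in another. Lower MII members can, as Sdhd with 0, 153 and 0 counts in MII NTY. In primary sham 1 of 24 high members falls to 3 or fewer counts, and others spread widely, as Atp5o with 2379, 24 and 20 counts. By contrast, 11 of 20 high members in primordial sham and 12 of 22 in primordial NTY lie at or under 3 counts in another replicate.

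Across the microdissected libraries, pairs of members were about as alike as pairs of any genes. The median Spearman correlation of member pairs over the 12 libraries was 0.134, and that of all gene pairs was 0.129. Among the most alike pairs were Cox5a with Ndufb8 (0.909) and Atp5b with Cyc1 (0.860). They were picked as the highest of all member pairs, and Ndufb8 had only 0 to 49 counts in these libraries, so no link is read from them. Over the 6 MII libraries the median of member pairs was 0.371 and that of all pairs 0.0857. Mitochondrially encoded RNA took a differing part of these libraries, 53950 to 248500 TPM. Its bearing on either correlation was not tested.

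NTY was compared with sham at each stage by the quasi-likelihood test of edgeR, fitted over all genes. A call required a Benjamini-Hochberg adjusted p under 0.05. For oocytes of primordial follicles, 76 members were tested and 0 were called, with a smallest adjusted p of 0.405. The background was 0.0095% of 10522 genes. At an unadjusted p under 0.05, 7 members were higher in NTY and 0 lower, against 7.64% and 3.24% of all genes. DESeq2 called 3 members, Ndufs3, Cox4i2 and Atp5pb, where it called 11.4% of all genes. The counts of Ndufs3 in NTY were 4, 17 and 9938, the last from NTY 3, and those of Cox4i2 were 337, 0 and 0. The median log2 fold change of the members was 0.29 and that of all genes 0.12, with a median standard error per member of 2.76. Without the doubtful primordial NTY 3, 0 members were called, 5 were higher and 0 lower at an unadjusted p under 0.05, and the median was 0.43. The shares and the median of all genes in that refit are not given. Nothing particular to the members can be read from it.

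Members whose groups did not overlap in CPM with TMM library sizes were 5 higher (Atp5k, Cox4i1, Ndufb9, Ndufv1 and Uqcrc2) and 2 lower (Atp5d and Cox6c) in primordial NTY. The background was 5.44% and 2.97% of genes. These members are named after their values were seen. Atp5k, the ATP synthase e subunit, had 0, 0 and 0 counts in sham and 3, 14 and 25 counts in NTY. Its mean of 0.551 CPM (SD 0.398, n = 3) in NTY lay at least 2.78-fold above what 3 counts amount to in the shallowest sham library (edgeR adjusted p = 0.414). The highest of the NTY counts, 25, came from primordial NTY 3, and NTY 1 lay under that floor at 0.132 CPM. Without NTY 3 the limit was 1.84-fold and the adjusted p by edgeR was 0.532.

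For oocytes of primary follicles, 0 of 76 members were called (background 0% of genes), and the smallest adjusted p was 0.500. With an unadjusted p under 0.05, 0 members were higher in NTY and 1 was lower, against 0.722% and 7.43% of genes. DESeq2 called 1 member, where it called 6.59% of all genes. It was Ndufaf5, which modifies a complex I subunit during assembly, in both tools. Ndufaf5 had 639, 14 and 33 counts in primary sham and 0, 0 and 0 in primary NTY. Its mean in sham of 9.58 CPM (SD 14.8, n = 3) lay at least 74.3-fold above what 3 counts amount to in NTY (edgeR adjusted p = 0.500), and 7.87-fold without sham 1. Groups did not overlap for 1 member that was higher in NTY, Ndufa13, and for 7 that were lower, where the background was 2.27% and 11.6%. The median log2 fold change was 0.046 for the members and -0.096 for all genes. Its direction turned under other settings, to -1.63 with limma voom weights and -2.03 in log2(TPM + 0.1), where all genes moved to -1.65 and -1.65.

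NTY and sham libraries of Uqcrc2 separated at both stages, in opposite directions. The gene was picked after its values were seen. It was not called within either stage, with an edgeR adjusted p of 0.9145 in primordial and 0.9804 in primary oocytes. Primordial oocytes gave 182, 292 and 5 counts for sham and 375, 877 and 299 for NTY. In primary oocytes it had 2044, 780 and 938 counts in sham and 55, 76 and 182 in NTY. On the scale of CPM with TMM library sizes the groups did not overlap at either stage. In TPM they did not overlap in primary oocytes (40.4 to 116 in sham, 2.71 to 8.90 in NTY), whereas in primordial oocytes NTY 3 at 14.9 TPM lay just under sham 1 at 15.1 TPM. The fitted difference of the 2 effects was -4.70 on the log2 scale (SE 3.98, edgeR adjusted p = 0.749). Uqcrc2 was the only one of 76 tested members above in primordial and below in primary oocytes without overlap. The same held for 0.637% of all 10522 genes. In MII the groups overlapped.

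In MII oocytes 71 members were tested and 0 were called (background 0% of 12209 genes), with a smallest adjusted p of 1.00. At an unadjusted p under 0.05, 0 members were higher and 0 lower, against 0.426% and 1.87% of genes, and DESeq2 called 0 members, where it called 0.238% of all genes. The median log2 fold change was 0.090 for the members and 0.0038 for all genes, with a median standard error per member of 1.03. Atp5b, as an abundant member, had 2789, 5542 and 4044 counts in sham and 4224, 3366 and 3172 in NTY.

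Without overlap in CPM with TMM library sizes, 9 members were higher and 1 lower in MII NTY, where the background was 2.63% and 5.72% of genes. This count depended on the scale and on 1 library. It was 4 higher and 1 lower in CPM by plain totals (2.32% and 5.99% of genes), 1 higher and 0 lower in TPM (2.04% and 5.52%), and 6 higher and 1 lower in TPM rescaled without mitochondrially encoded genes (2.34% and 5.91%). Without MII sham 1, it was 9 higher and 12 lower in CPM with TMM library sizes and 1 higher and 15 lower in TPM. The share of all genes is not given for these last counts. With fewer sham libraries, the groups of any gene separate more easily. No direction of the members can be read from these counts.

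The step from primordial to primary follicles was compared within each treatment. In sham 0 of 76 members were called (background 0.0095%), and the smallest adjusted p was 0.473. With an unadjusted p under 0.05, 6 members were higher in primary oocytes and 0 lower, against 8.67% and 0.608% of genes. DESeq2 called 3, Cox4i2, Atp5pb and Ndufb6, where it called 7.29% of all genes, and Cox4i2 had 0, 0 and 0 counts against 1, 0 and 16. The median log2 fold change was 0.63 for the members and 0.29 for all genes. It was 0.17 with RLE normalization, where all genes came to -0.00046, and 2.01 with limma voom weights, where they came to 1.94. Leaving out 1 library gave 0.31 to 2.15, the highest without primordial sham 3.

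Groups did not overlap for 9 members, all higher in primary sham, and for 0 lower ones, where the background was 12.5% and 1.74%. Ndufb6, a complex I accessory subunit, had 0, 0 and 0 counts in primordial oocytes and 37, 225 and 60 counts in primary oocytes of the sham group. Its mean there of 4.69 CPM (SD 4.60, n = 3) lay at least 23.7-fold above what 3 counts amount to (edgeR adjusted p = 0.473), and 10.4-fold without primary sham 2. Atp5pb, the peripheral stalk subunit b, had 0, 0 and 0 counts against 121, 19 and 193, at least 23.8-fold higher, and 14.9-fold without primary sham 3. Atp5k had 0, 0 and 0 counts against 3, 49 and 35, at least 6.38-fold higher, and 4.09-fold without primary sham 2. Primary sham 1, at 0.125 CPM, lay under the floor of 0.198 CPM. Both had the same adjusted p as Ndufb6. Each of the 3 primordial sham libraries had fewer members with a count (42, 64 and 65) than the primary sham libraries (86, 78 and 87). The genes detected in all stood in the same order, 6147, 9229 and 9852 against 12955, 10565 and 13755.

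In NTY the step from primordial to primary follicles gave 0 calls of 76 (background 0%) and a smallest adjusted p of 0.588. At an unadjusted p under 0.05, 0 members were higher and 0 lower, against 3.49% and 6.48% of genes, and DESeq2 called 1, Ndufa13, where it called 10.7% of all genes. Groups did not overlap for 4 higher members (Atp5d, Ndufa13, Ndufs7 and Sdhd) and 2 lower ones (Cyc1 and Uqcrc2), against 3.23% and 4.61% of genes. The median log2 fold change was 0.33 for the members and 0.081 for all genes. Without primordial NTY 3 it was 0.49 for the members, with 0 calls, and the median of all genes in that refit is not given.

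The difference of the NTY effect, primary minus primordial, was called for 0 of 76 members (background 0.0095%). At an unadjusted p under 0.05, 0 members had a positive and 3 a negative difference, against 2.26% and 9.58% of genes. The 3 were Atp5pb (edgeR adjusted p = 0.261), Ndufb6 (0.269) and Atp5k (0.372). DESeq2 called 2, Cox4i2 and Atp5pb, where it called 11.6% of all genes. All 3 genes were at 0 in every primordial sham library. Atp5pb had 12, 297 and 0 counts in primordial NTY and 38, 18 and 18 in primary NTY. Ndufb6 had 40, 24 and 0 counts in primordial NTY and 1, 0 and 31 in primary NTY. Atp5k had 40, 0 and 0 counts in primary NTY. Replicates of one NTY group thus spanned 0 to 297 counts for Atp5pb and 0 to 40 counts for Ndufb6 and for Atp5k. Without primordial NTY 3 the adjusted p-values were 0.235, 0.244 and 0.502 by edgeR.

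**Figure D5:**
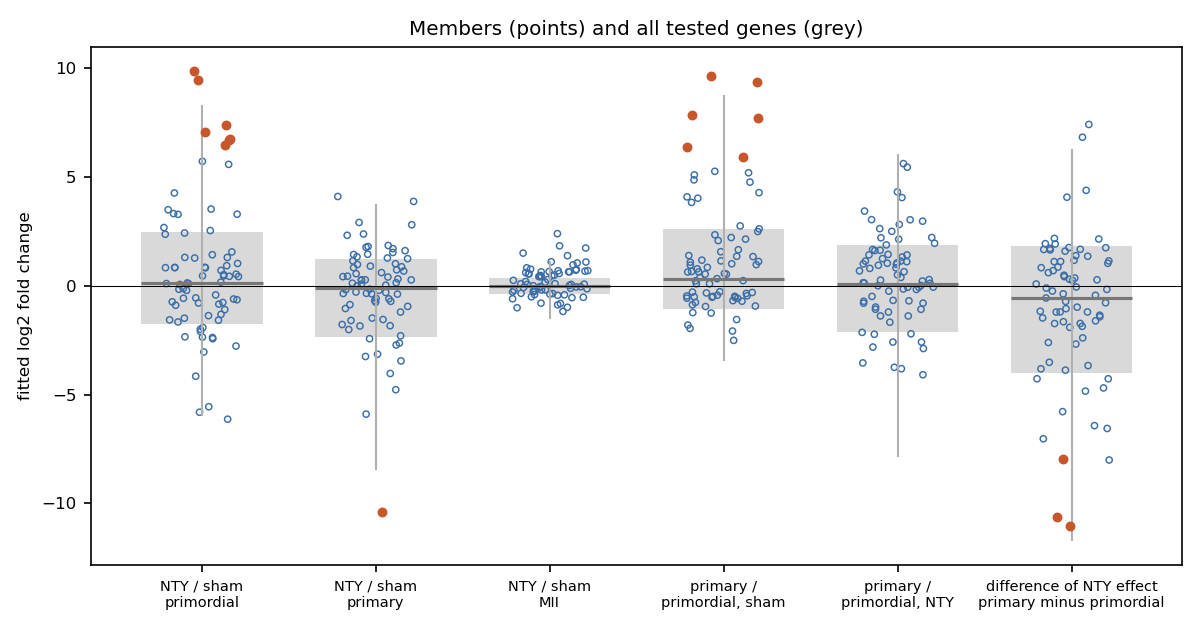
Fitted log2 fold changes (vertical axis) of the tested members (points, filled where the unadjusted p is under 0.05) in the 6 comparisons (horizontal axis), over the range of all tested genes (grey box for the middle 50%, line for the middle 90%, bar for the median). The members spread over the same range as the other genes, and the MII points lie closest to 0.

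Genes around the chain gave no call by edgeR either. Of the 40 other assembly factors, 26 were tested in the microdissected fit and 25 in MII, and 0 passed the adjusted threshold in any of the 6 comparisons. Those with an unadjusted p under 0.05 numbered 4 higher in primordial NTY (Sdhaf3, Foxred1, Uqcc3 and Cox15, against 7.64% of all genes), 4 lower in primary NTY (Bcs1l, Atpaf1, Sdhaf3 and Atpaf2, against 7.43%), 3 higher in the sham step (8.67%), 2 higher and 7 lower in the NTY step (3.49% and 6.48%), 6 lower in the difference (9.58%) and 0 in MII. DESeq2 called 2, 3, 2, 6, 5 and 0 of them in these comparisons, with the shares of all genes it called given above. The count by edgeR was also 0 for the 15 listed regulators (11 tested), which include the mitochondrial DNA replication genes Polg and Twnk. It was 0 for the 18 listed cycle genes (18 and 16 tested), those of the tricarboxylic acid cycle with pyruvate dehydrogenase genes and cytosolic Mdh1. The 13 mitochondrially encoded genes (9 and 13 tested) and the 2 cytochrome c genes (1 and 2 tested) gave 0 as well. Over the 6 comparisons, an unadjusted p under 0.05 occurred 1 time among the regulators, 3 times among the cycle genes and 0 times among the mitochondrially encoded and cytochrome c genes, and DESeq2 made 1, 4, 0 and 0 calls in these lists.

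Cytochrome c carries electrons from complex III to complex IV. The somatic form Cycs had 13.4, 43.2 and 38.9 TPM in MII sham and 25.6, 21.1 and 24.6 TPM in MII NTY, and 0 to 218 TPM in the microdissected libraries. The testis form Cyct had 2.53, 6.50 and 7.02 TPM in MII sham and 5.36, 20.7 and 9.90 TPM in MII NTY. It reached 407 TPM in primordial sham 2 and had no count in the 11 other microdissected libraries. Cycs was thus the higher of the pair in every MII library, in contrast to Cox6b1 and Cox6b2, though by little in MII NTY 2.

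Many of these genes have near-identical processed pseudogenes, and the sources used here do not state how reads shared between copies were counted. Their levels are uncertain to that extent, and 3 of the 95 members (Ndufa11b, Ndufb4c and Cox6c2) are annotated as processed pseudogenes themselves.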

How the data were processed

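Bulk RNA sequencing libraries of mouse oocytes (3 per group, 6 groups) were grouped by their labels. The authors deposited raw counts per gene and TPM values that sum to 1000000 per library. The submitters' processing notes name Trim Galore 0.4.1, TopHat2, featureCounts and mm10. Columns left unused numbered 0. The members, gene lists, tests and motifs were chosen with earlier results of these data known.

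Counts of all genes were fitted with edgeR 4.0.16 in R 4.3.3 (TMM, filterByExpr by group, robust quasi-likelihood test, Benjamini-Hochberg adjustment over all genes tested). The 12 microdissected libraries shared a fit and the 6 MII libraries were fitted alone. The common dispersion was 3.59 in the former. DESeq2 1.42.0, limma 3.58.1 and the other settings tried are described in the closing section. Statistics of fold change were given for up to 3 members per direction with an unadjusted p under 0.05 and no overlap. A fold against a group at 0 was computed against 3 counts in the shallowest library of that group and covers counting error only. Coordinates are those of GENCODE M21 and RefSeq on GRCm38. Differences among values of 3 counts or fewer were not detectable at this depth. The values of 1 member are not reported here by name, although the counts and sums include it.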

Additional observations from a re-analysis of the deposited data

Results flagged for a closer look

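Uqcrc2 was flagged because its libraries separated in opposite directions at 2 stages, in CPM with TMM library sizes. Every NTY library was above the sham libraries in primordial oocytes and below them in primary oocytes. Neither stage alone gave a call (edgeR adjusted p = 0.9145 and 0.9804). The fitted difference of the effects was -4.695 on the log2 scale (SE 3.98), and the edgeR test of that difference gave an adjusted p of 0.749. In TPM the primordial groups overlapped by 1 library.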

How the results depend on the processing

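Every edgeR and limma setting and every fit that left out 1 library kept the number of called members at 0 in all 6 comparisons. DESeq2 called 3 members in primordial NTY, 1 in primary NTY, 3 in the sham step between stages, 1 in the NTY step, 2 in the difference of effects and 0 in MII, where it called 11.4%, 6.59%, 7.29%, 10.7%, 11.6% and 0.238% of all genes, and the cause was not tested. The median log2 fold change of the members moved by more than the spread of library medians under several settings. For NTY in primary oocytes it was -1.634 with voom weights, -1.134 with the replicate block, -0.9218 with log2(TPM + 1) and -2.03 with log2(TPM + 0.1), the opposite sign to the main 0.046. For the sham step it was 0.169 with RLE normalization, 0.1759 with DESeq2, 2.007 with voom weights, 1.145 with the replicate block, and 1.246 and 2.369 with log2(TPM + 1) and log2(TPM + 0.1), and RLE normalization moved the median of all genes from 0.29 to -0.00046. For the NTY step it was -0.6939 with voom weights. For the difference it was -2.942 with voom weights, -1.504 with the replicate block, and -1.555 and -2.53 on the 2 TPM scales. The median of all genes moved alongside, to -1.65 with voom weights in primary NTY. The log2 ratio of the summed level, NTY over sham, was 0.36 in primordial, -0.014 in primary and -0.072 in MII oocytes, and in primary oocytes 0.3549 in CPM with TMM library sizes.

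When each library was left out in turn, the median ranged from -0.00251 to 1.071 for primordial NTY, from -0.8456 to 0.3043 for primary NTY, from 0.3068 to 2.148 for the sham step, from -0.5799 to 0.6762 for the NTY step, from -1.538 to -0.05115 for the difference and from 0.006013 to 0.3876 for MII. Primordial sham 3 and primary NTY 1 gave the most extreme values. The log2 ratio of sums ranged from 0.1216 to 0.7353 in primordial, -0.1375 to 0.1618 in primary and -0.3868 to 0.1178 in MII oocytes. Same-numbered libraries showed no sign of pairing, with correlations of deviations of -0.0798 to 0.083 between them. With 3 libraries per group and their wide spread, this cannot exclude pairing. The replicate block left the called members at 0. Members with an unadjusted p under 0.05 numbered 0 to 7 higher in primordial NTY, 0 to 4 lower in primary NTY, 1 to 10 higher in the sham step and 0 to 9 lower in the difference over all settings, the lowest of each under the filter that asks every library compared for 10 counts, where 5 to 17 members were left. The spread between microdissected replicates limits what the fits can detect.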
